A study of Mus musculus with 18 samples.

Results

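The expression of 9 transcription factors that build and maintain the macrophage lineage was followed in bone marrow-derived macrophages (BMDMs): Spi1 (which encodes PU.1), Cebpa, Cebpb, Cebpd, Maf, Runx1, Mitf, Tfec and Bach1. They were taken by symbol from the 24485 genes of the deposited tables as known lineage factors, by a rule that used no measured value although earlier results of these data were known, and all 9 were present, had reads in every library and were tested in every comparison. LPS, a cell wall component of Gram-negative bacteria that activates macrophages, changed all 9, where 63.1% of all tested genes were called: Spi1, Cebpb, Cebpd, Maf, Mitf and Tfec were higher, and Cebpa, Runx1 and Bach1 lower. In LPS-stimulated cells, pretreatment with JQ1 moved 7 of the 9 against the direction of LPS, lowered Runx1 further, and left Cebpb without a call. Cebpb was called lower when the replicate number was a block in the DESeq2 test (log2 fold change -0.33, adjusted p 0.0183). When libraries were scaled to equal totals its log2 fold change was 0.015, without a call. Of all tested genes 57.3% were called (24.4% higher, 32.9% lower). The share of all genes that moved against LPS was not counted, and the study reports that JQ1 attenuated most LPS-induced genes. IL-10 instead raised the 3 C/EBP genes and Runx1 in LPS-stimulated cells and lowered Mitf slightly (15.7% of all tested genes were called).

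All libraries came from Il10-/- mice on the C57BL/6J background, so every group, controls included, lacked the mice's own interleukin 10 (IL-10), and no wild-type RNA was compared here. Marrow of 3 male mice, 12 weeks old, was cultured for 6 days in L929-conditioned medium, which supplies the macrophage growth factor CSF1. A pretreatment of 12 hours used 500 nM (+)-JQ1, 10 ng/mL IL-10 or neither agent, and 50 ng/mL LPS or phosphate-buffered saline followed for 4 hours, which made 6 groups of 3: Unstimulated, JQ1, IL-10, LPS, LPS + JQ1 and LPS + IL-10. The study's methods name a vehicle pretreatment before LPS but untreated cells as the unstimulated control. JQ1 is a small molecule that occupies the bromodomains of the BET proteins and so keeps them from acetylated histones, and the comparisons ask what BET inhibition does to the response to LPS, with the anti-inflammatory cytokine IL-10 beside it.

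Total expected counts per library ran from 6781952 to 28289498, and equal replicate numbers were taken as the same mouse. All libraries of replicate 1 were sequenced on lane 7 and those of replicate 3 on lane 8, while replicate 2 was split, with its unstimulated libraries (lane 7) apart from its LPS libraries (lane 8). The 10 macrophage markers checked were present in every library, led by Lyz2 at 9722 to 24853 TPM (transcripts scaled to a fixed library total). Their levels moved with JQ1: LPS + JQ1 vs LPS called 9 of the 10 (2 higher, 7 lower, where 57.3% of all genes were called) and JQ1 alone 9 (4 higher, 5 lower, where 44.4% were called). LPS + JQ1 vs Unstimulated called all 10 (3 higher, 7 lower, where 65.5% were called), and Fcgr1, a receptor for IgG, ranged from 9.92 to 495 TPM over the libraries. Markers of other cells were low: of 10 neutrophil markers 5 never exceeded 3 counts, Ly6g was 0 everywhere, and the list summed to 7.50 to 87.6 TPM, highest in an Unstimulated library. The list of 8 stromal and endothelial markers summed to 25.0 to 29.5 TPM with LPS or LPS + IL-10 and 2.33 to 11.1 TPM elsewhere, with Pdgfrb at 12.1 to 14.1 TPM in the former. The T and NK cell list was at most 8.85 TPM, B cell 5.34, dendritic cell 5.69, mast cell 0.600 and erythroid 1.33. The part of these marker shifts in the results was not tested, and in bulk RNA fewer cells of a type and less RNA per cell cannot be told apart.

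PU.1 is an ETS-family factor that opens chromatin at myeloid enhancers, and it works there with the C/EBP bZIP factors: C/EBPα in the commitment of progenitors, C/EBPβ and C/EBPδ in inflammatory and acute-phase transcription. RUNX1 establishes definitive blood cells and primes the Spi1 locus. MAF (c-Maf) acts in the self-restraint and anti-inflammatory program of mature macrophages, MITF and TFEC belong to the MiT/TFE family of lysosomal and osteoclast regulators, and BACH1 is a heme-sensitive repressor of iron and antioxidant genes.

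In Unstimulated cells Spi1 was the most abundant of the 9 per transcript length, at 588 ± 50.2 TPM (SD, n = 3), followed by Cebpa at 417 ± 44.4, Cebpb at 251.0 ± 59.0 and Maf at 122 ± 1.15. Mitf (50.8 ± 3.99), Bach1 (46.3 ± 1.96) and Runx1 (43.5 ± 3.75) overlapped across replicates, as did Cebpd (24.0 ± 4.80) and Tfec (18.5 ± 5.13) at the bottom. With LPS, Cebpa dropped from the second place to the last, at 4.52 ± 0.406 TPM. Spi1 stayed at the top with 1380 ± 114, Cebpb (345 ± 58.9) and Maf (244 ± 41.1) overlapped, and Tfec (120 ± 16.9) overlapped with Cebpd (117 ± 10.9) above Mitf (80.7 ± 8.80). Runx1 (10.4 ± 0.677) and Bach1 (11.2 ± 2.16) could not be ordered within their spread. With LPS + JQ1 the order was Spi1, Cebpb, Maf, Cebpd and Cebpa, each separate from the next, then Bach1, Mitf and Tfec between 19.1 and 26.1 TPM, and Runx1 last at 5.98 ± 0.494. With LPS + IL-10, Spi1 at 1536 ± 128 and Cebpb at 1006.0 ± 244 led, and Cebpa was again last, at 9.88 ± 3.15, overlapping with Bach1 at 12.1 ± 1.24.

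**Figure D1:**
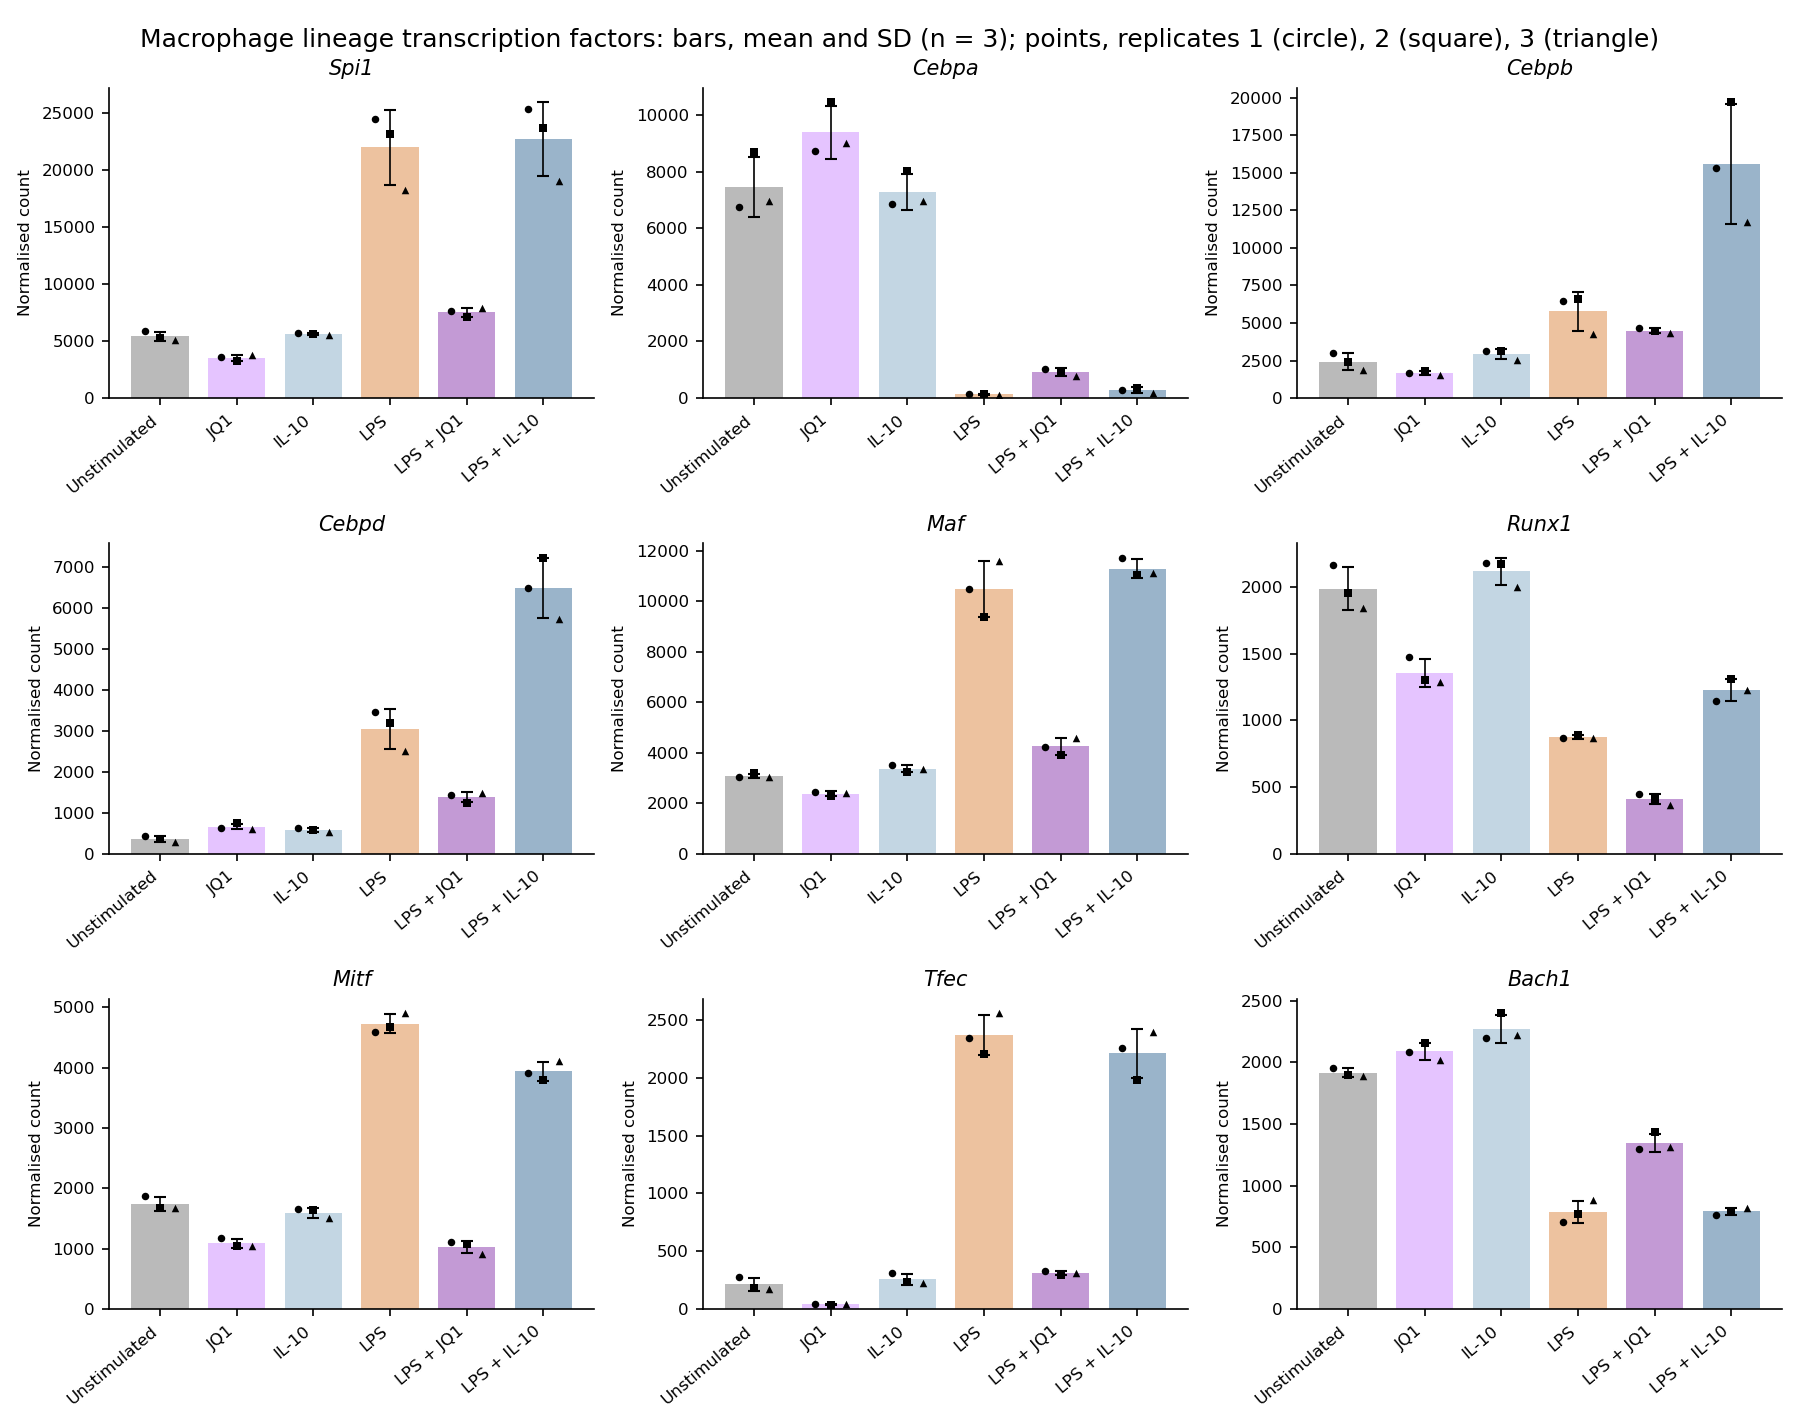
Normalised counts (vertical axis, linear from 0, a different range in each panel) of the 9 transcription factors in the 6 groups (horizontal axis); bars are means with SD over 3 replicates and points are single libraries. Cebpa, Runx1 and Bach1 fell with LPS and the other 6 rose; the purple LPS + JQ1 bar lies below the orange LPS bar in every panel except those of Cebpa and Bach1.

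Comparisons were made on counts normalised by median-of-ratios size factors with the DESeq2 Wald test, and a gene was called at a Benjamini-Hochberg adjusted p under 0.05 over all genes. Called shares were high for all genes, so the counts of members are read against them. LPS called 9 of 9 (6 higher, 3 lower), where 63.1% of all tested genes were called, 30.8% higher and 32.2% lower. The median absolute log2 fold change was 1.77 for the 9 and 0.99 for all tested genes. JQ1 alone called 7 (1 higher, 6 lower; all genes 44.4%, with 21.3% higher and 23.1% lower). In LPS-stimulated cells it called 8 (2 higher, 6 lower; all genes 57.3%, with 24.4% and 32.9%), at a median absolute log2 fold change of 1.30 against 0.69. IL-10 alone called 2, both higher (all genes 3.96%, with 2.50% higher and 1.47% lower), and in LPS-stimulated cells 5 (4 higher, 1 lower; all genes 15.7%, with 7.67% and 8.02%). LPS + JQ1 differed from LPS + IL-10 in all 9 (2 higher, 7 lower; all genes 55.3%, with 23.8% and 31.6%). Several of these comparisons share libraries, among them LPS vs Unstimulated and LPS + JQ1 vs LPS, in which the LPS libraries enter with opposite sign.

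LPS turned over the C/EBP genes: Cebpa, which drives myeloid commitment, fell 53.7-fold, while Cebpb and Cebpd rose. JQ1 and IL-10 both raised Cebpa in LPS-stimulated cells, JQ1 more than IL-10, but they parted at the inflammatory members, of which JQ1 lowered Cebpd and IL-10 raised both. Cebpa (mm9 chromosome 7, 35904312 to 35906945, plus strand) lay at 6761.5, 8685 and 6949 normalised counts in Unstimulated replicates 1, 2 and 3, at 8724, 10451 and 8997 after JQ1, and at 6852, 8006 and 6980.1 after IL-10. It lay at 147, 153 and 117 in the LPS group, while LPS + JQ1 gave 1044, 926 and 791.5, and LPS + IL-10 gave 292, 371 and 183. Every LPS-treated library was far below every library without LPS, and among the LPS-treated ones the 3 groups did not overlap. The fall with LPS (log2 fold change -5.75, SE 0.188, adjusted p 1.56e-202) was smaller among JQ1-treated cells (-3.35, adjusted p 2.70e-81) and among IL-10-treated cells (-4.70, adjusted p 1.18e-148). In LPS-stimulated cells Cebpa rose 6.62-fold with JQ1 (log2 fold change 2.73, SE 0.190, adjusted p 3.57e-45) and 2.01-fold with IL-10 (log2 fold change 1.01, SE 0.196, adjusted p 6.72e-06), and the 2 treatments differed from each other (1.72, adjusted p 3.49e-20). JQ1 alone left it at a log2 fold change of 0.33 (adjusted p 0.106), which passed with the replicate block (0.34, adjusted p 0.0241), although the Unstimulated and JQ1 libraries did not overlap.

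Cebpb (chromosome 2, 167514415 to 167515918, plus strand) had 3006, 2396.5 and 1887 normalised counts in Unstimulated replicates 1 to 3, JQ1 alone gave 1653, 1799 and 1557, and IL-10 alone gave 3129, 3128 and 2540.5. The counts were 6427, 6613 and 4273 in the LPS group, while LPS + JQ1 gave 4660.4, 4482 and 4318, and LPS + IL-10 gave 15308, 19682 and 11684. The LPS + IL-10 libraries stood above all others, whereas LPS and LPS + JQ1 overlapped, since replicate 3 of LPS was below all LPS + JQ1 libraries. LPS raised Cebpb 2.38-fold (log2 fold change 1.25, SE 0.188, adjusted p 9.42e-11), and IL-10 raised it a further 2.70-fold (log2 fold change 1.43, SE 0.187, adjusted p 1.43e-12). JQ1 in LPS-stimulated cells gave a log2 fold change of -0.36, with a 95% interval from -0.73 to 0.004 (adjusted p 0.0864). That value passed with the replicate block (-0.33, adjusted p 0.0183) and without replicate 3 (-0.51, adjusted p 1.64e-04). Under total-count scaling its sign changed (0.015, adjusted p 0.959), and there the rise of Cebpb with LPS was 0.32 (adjusted p 0.105). Without LPS, JQ1 lowered Cebpb (-0.54, adjusted p 0.0111), a call that was lost without Unstimulated replicate 1, its highest control (-0.36, adjusted p 0.139) or without all of replicate 1 (-0.35, adjusted p 0.446). In GENCODE vM1 the exons of Cebpb overlap an exon of Tmem189 on the opposite strand, and reads were counted without regard to strand, so reads of the overlap cannot be told apart.

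Cebpd (chromosome 16, 15887379 to 15888559, plus strand, listed as a pseudogene in this early annotation) had 437, 353.5 and 295 normalised counts in Unstimulated replicates 1 to 3, JQ1 alone gave 638, 739 and 606, and IL-10 alone gave 627, 571 and 519. It reached 3459.7, 3205 and 2511 in the LPS group, while LPS + JQ1 gave 1435, 1242 and 1488, and LPS + IL-10 gave 6505, 7233 and 5749. All 3 LPS-treated groups were above the groups without LPS and apart from each other, in the order LPS + JQ1, LPS and LPS + IL-10. LPS raised Cebpd 8.46-fold (log2 fold change 3.08, SE 0.148, adjusted p 4.50e-95), and IL-10 raised it both without LPS (0.66, adjusted p 7.28e-04; 0.65, adjusted p 0.0624 without replicate 2) and with it (1.09, adjusted p 1.20e-12). Of the 9, it was the gene for which the JQ1 effect had opposite signs, higher without LPS (0.87, adjusted p 5.18e-08) and lower with it (-1.14, adjusted p 1.02e-14), and the interaction of LPS and JQ1 passed (-2.01, adjusted p 1.35e-20).

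Among the family's relatives, Cebpg, a partner that dimerises with the other C/EBP proteins, fell with LPS as Cebpa did, from 987 to 1013 normalised counts in Unstimulated libraries to 217 to 277.5 with LPS (log2 fold change -2.02, SE 0.110), and was higher again with LPS + JQ1 at 357 to 453 (log2 fold change 0.77, SE 0.115). Ddit3, which encodes the stress-induced relative CHOP, was also higher with JQ1 in LPS-stimulated cells (1.66, SE 0.147). Cebpe, a granulocyte member, averaged 2.37 normalised counts over all libraries. Trib1 encodes a pseudokinase that directs the C/EBPα protein to degradation. It moved in opposite directions with the treatments in LPS-stimulated cells, at 553, 489 and 573 in the LPS group, while LPS + JQ1 gave 120.4, 119 and 159, and LPS + IL-10 gave 1087, 1196 and 1187, with log2 fold changes of -2.03 (SE 0.114) for JQ1 and 1.11 (SE 0.088) for IL-10, both called. Of the 7 relatives and regulators listed, LPS called 0 higher and 4 lower (63.1% of all genes were called), and JQ1 in LPS-stimulated cells called 4 higher and 1 lower (57.3% of all genes), at a median log2 fold change of 0.54 against -0.11 for all tested genes.

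The 250 bases before the RefSeq starts of these genes are printed for Cebpa and Cebpb, which LPS moved in opposite directions; the sequences are from RefSeq (GRCm38.p6) and each matched mm9 exactly at the coordinates given. They read 5′ to 3′ on the gene's strand, in lower case, and the capitals mark the CRE core TGACG on either strand, the core bound by CREB and ATF factors.
Cebpa, chr7:35904062-35904311, plus strand: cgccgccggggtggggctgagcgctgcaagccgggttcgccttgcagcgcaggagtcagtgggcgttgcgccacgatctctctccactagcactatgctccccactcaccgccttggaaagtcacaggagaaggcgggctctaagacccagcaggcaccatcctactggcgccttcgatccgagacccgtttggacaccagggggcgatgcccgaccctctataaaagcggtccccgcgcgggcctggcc
Cebpb, chr2:167514165-167514414, plus strand: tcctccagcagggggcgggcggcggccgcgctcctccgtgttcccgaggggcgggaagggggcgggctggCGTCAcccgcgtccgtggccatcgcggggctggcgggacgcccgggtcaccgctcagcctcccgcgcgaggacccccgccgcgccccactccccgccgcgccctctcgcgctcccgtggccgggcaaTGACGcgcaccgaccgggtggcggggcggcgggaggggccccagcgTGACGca
The Cebpb window held 3 of these cores, beginning 180, 53 and 7 bases before the start, and the Cebpa window held 0. Of 32851 promoter windows of this length 17.8% held at least 1 and 0.69% held 3 or more. These shares were not matched for base composition. The bases G and C made up 81.6% of the Cebpb window and 66.4% of the Cebpa window, against a median of 52.4% over all windows. The motif put in capitals was chosen for each gene. A match is a string of letters only. The search covered 6 motifs on both strands: C/EBP (TTGNNNAA, in 33.3% of all windows), AP-1 (TGANTCA, 6.7%), STAT (TTCNNNGAA, 7.0%), PU.1 (GAGGAA, 23.3%), the CRE core and the E box (CANNTG, 66.2%). Windows were held for 6 of the 9 genes, with 3 starts for Mitf and 2 for Runx1, and of these 9 windows 2 held the C/EBP letters, 0 AP-1, 0 STAT, 1 PU.1, 2 the CRE core and 2 the E box. Spi1, Cebpd and Maf were not matched.

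Spi1 rose with LPS, and with LPS + JQ1 it stood near the unstimulated level. JQ1 also lowered Spi1 without LPS, and among JQ1-treated cells LPS still raised it 2.13-fold (log2 fold change 1.09, adjusted p 2.24e-21). Spi1 (chromosome 2, 90922547 to 90955913, plus strand) had 5854, 5294 and 5102 normalised counts in Unstimulated replicates 1 to 3, JQ1 alone gave 3570.0, 3262 and 3736, and IL-10 alone gave 5736, 5631 and 5521. It had 24448, 23147.5 and 18241 in the LPS group, while LPS + JQ1 gave 7622, 7062 and 7858.5, and LPS + IL-10 gave 25306, 23616 and 19028.5. The LPS and LPS + IL-10 libraries were interleaved and lay above all others. LPS raised Spi1 4.05-fold (log2 fold change 2.02, SE 0.112, adjusted p 2.70e-71), and JQ1 lowered it 2.92-fold in LPS-stimulated cells (log2 fold change -1.55, SE 0.112, adjusted p 5.07e-42) and 1.54-fold without LPS (-0.62, adjusted p 2.52e-07). IL-10 gave a log2 fold change of 0.045 in LPS-stimulated cells, with a 95% interval from -0.17 to 0.26. LPS + JQ1 was above Unstimulated by 0.47 on the log2 scale (adjusted p 6.06e-05), but this difference was -0.079 under total-count scaling and -0.004 in limma's fit of TPM.

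The shares of all tested genes beside which the following list counts stand are 63.1% for LPS (30.8% higher, 32.2% lower) and 57.3% for JQ1 with LPS (24.4% higher, 32.9% lower), and no list was tested against other genes. Of 13 listed ETS factors and PU.1 partners LPS called 8 higher and 3 lower, and JQ1 in LPS-stimulated cells 1 higher and 9 lower, at a median of -0.34 against -0.11 for all tested genes; under total-count scaling these splits were 5 higher and 6 lower, and 4 higher and 6 lower. Etv6, an ETS repressor, rose with LPS by 2.84 on the log2 scale and JQ1 lowered it in LPS-stimulated cells (-1.18, SE 0.069), as it did Gabpa (-1.09, SE 0.108), whereas Ets1 fell with LPS (-2.63, SE 0.177) and was higher with JQ1 (1.88, SE 0.183). Irf8, the partner with which PU.1 binds composite sites, rose with LPS (2.89, SE 0.160) and was lowered by JQ1 (-0.78, SE 0.159) and by IL-10 (-1.45, SE 0.159). Of 20 myeloid genes known to depend on PU.1 and C/EBP factors, JQ1 in LPS-stimulated cells called 2 higher and 16 lower (4 and 11 under total-count scaling), at a median of -0.89. JQ1 alone called 4 higher and 14 lower (median -0.39), where 44.4% of all tested genes were called (21.3% higher, 23.1% lower). LPS itself called 9 higher and 3 lower there, but 6 higher and 13 lower under total-count scaling. The largest called JQ1 differences in LPS-stimulated cells were Cd33, a sialic acid-binding receptor (-4.77, SE 0.304), Csf3r, the G-CSF receptor (-3.84, SE 0.156), and Ncf1, a subunit of the phagocyte oxidase (-2.35, SE 0.103). The neutrophil marker list, which shares this lineage, summed to 24.3 to 87.6 TPM in Unstimulated libraries, 7.50 to 17.5 with JQ1, 35.9 to 51.9 with LPS and 13.3 to 30.1 with LPS + JQ1, and its part in these differences was not tested.

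Runx1 was lowered by LPS and lowered further by JQ1, the 1 gene of the 9 that was called in the same direction for LPS and for JQ1 in LPS-stimulated cells. Runx1 (chromosome 16, 92601712 to 92826311, minus strand) had 2162, 1955 and 1843 normalised counts in Unstimulated replicates 1 to 3, JQ1 alone gave 1476, 1302 and 1288, and IL-10 alone gave 2182, 2171.5 and 2000.5. It fell to 869.5, 893 and 864 in the LPS group, while LPS + JQ1 gave 448, 409.7 and 368, and LPS + IL-10 gave 1143.5, 1310.3 and 1227. Each LPS-treated group was apart from the other two, with LPS + IL-10 the highest. The log2 fold change was -1.18 (SE 0.087) for LPS, -0.55 (SE 0.084) for JQ1 alone, -1.10 (SE 0.095) for JQ1 with LPS and 0.49 (SE 0.089) for IL-10 with LPS. LPS + JQ1 cells thus held 4.86-fold less than Unstimulated cells (-2.28, adjusted p 3.09e-134). Exons of Runx1 overlap the long non-coding Gm16801 on the opposite strand in GENCODE vM1, whose reads cannot be told apart without strand.

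The estimated transcript composition of Runx1 also moved. RSEM weights a gene's length by the estimated abundance of its transcripts, and the tables listed 5 transcripts for Cebpa, 4 for Runx1, 3 each for Cebpb and Mitf, and 1 for each other member. Only for Runx1 did the weighted length differ by more than 10 bases between libraries. The weighted length of Runx1 was 6454, 6476 and 6413 bases in Unstimulated replicates 1 to 3, JQ1 alone gave 6472, 6405 and 6406, and IL-10 alone gave 6404, 6358 and 6419. It was 6856, 6913 and 6935 bases in the LPS group, while LPS + JQ1 gave 6931, 6941 and 6932, and LPS + IL-10 gave 6890, 6894 and 6893. All 9 LPS-treated libraries lay above all 9 others. The mean difference was 454 bases for LPS against Unstimulated (exact two-sided permutation p = 0.1, the smallest that 3 against 3 allows), 507 with JQ1 in both groups and 499 with IL-10 in both, each at the same p; this was examined after the values were seen. JQ1 shifted the length by -20 bases without LPS (exact p = 0.5) and 34 with it (exact p = 0.3). The length of Mitf ran from 4883 to 4890 bases. The share of each Runx1 transcript was not analysed here.

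**Figure D2:**
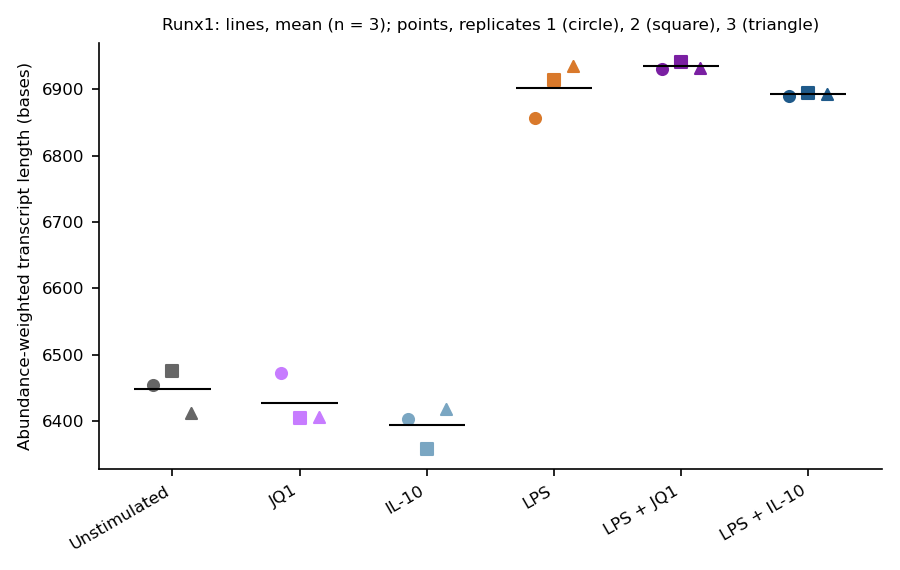
Abundance-weighted transcript length of Runx1 in bases (vertical axis, not from 0) in the 6 groups; points are the 3 replicates and lines their means. The 9 libraries without LPS lie between 6358 and 6476 bases and the 9 with LPS between 6856 and 6941, with no visible step for JQ1 or IL-10.

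Runx1 is transcribed from a distal and a proximal promoter, and both windows are shown. Whether the shift in weighted length came from a change between these promoters was not tested. Capitals mark the PU.1 core GAGGAA on either strand.
Runx1 proximal start, chr16:92697575-92697824, minus strand: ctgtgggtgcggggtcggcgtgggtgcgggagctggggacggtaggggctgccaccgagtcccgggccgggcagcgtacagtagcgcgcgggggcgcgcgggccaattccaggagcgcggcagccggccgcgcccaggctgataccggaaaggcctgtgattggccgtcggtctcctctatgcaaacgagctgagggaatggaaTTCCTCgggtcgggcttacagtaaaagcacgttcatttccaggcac
Runx1 distal start, chr16:92826320-92826569, minus strand: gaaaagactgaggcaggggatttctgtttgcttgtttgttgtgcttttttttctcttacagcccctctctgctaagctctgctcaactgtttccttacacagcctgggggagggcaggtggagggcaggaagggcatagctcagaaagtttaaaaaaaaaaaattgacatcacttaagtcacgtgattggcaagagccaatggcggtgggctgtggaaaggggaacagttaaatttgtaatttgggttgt
The proximal window held 1 match, 46 bases before the start, and the distal window 0. Of the relatives, Runx2 and Runx3 were low (means of 105 and 73.2 normalised counts), Runx3 fell with JQ1 with LPS (-1.73, SE 0.318) and without it (-1.74, SE 0.284), and the shared partner subunit Cbfb was lowered by JQ1 in LPS-stimulated cells (-1.09, SE 0.060). LPS raised Cbfb by 0.90 (SE 0.058), a value of -0.026 under total-count scaling. Of 6 RUNX family genes and cofactors, 5 were tested, of which LPS called 1 higher and 3 lower (0 and 4 under total-count scaling) and JQ1 with LPS 1 higher, the corepressor gene Cbfa2t2 (1.03, SE 0.118), and 2 lower.

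Maf and Bach1, both bZIP factors that bind related elements and share small MAF partners or sites, moved in opposite directions: LPS raised Maf and lowered Bach1, and in LPS-stimulated cells JQ1 lowered Maf and raised Bach1. Maf (chromosome 8, 118206842 to 118231694, minus strand) had 3019, 3183 and 3022.5 normalised counts in Unstimulated replicates 1 to 3, JQ1 alone gave 2456, 2273 and 2401, and IL-10 alone gave 3499.7, 3225 and 3348. It had 10477, 9384 and 11616 in the LPS group, while LPS + JQ1 gave 4245, 3919 and 4596.5, and LPS + IL-10 gave 11730.3, 11045 and 11138.5. LPS libraries overlapped with LPS + IL-10 libraries and lay above all others. LPS raised Maf 3.41-fold (log2 fold change 1.77, SE 0.078, adjusted p 5.93e-114), and 1.79-fold among JQ1-treated cells (0.84, adjusted p 1.03e-25). JQ1 lowered Maf 2.47-fold with LPS (log2 fold change -1.30, SE 0.077, adjusted p 3.86e-62) and 1.29-fold without (-0.37, adjusted p 1.38e-05). IL-10 gave 0.11 with LPS (95% interval -0.042 to 0.26).

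Bach1 (chromosome 16, 87699190 to 87733591, plus strand) had 1956, 1898 and 1892 normalised counts in Unstimulated replicates 1 to 3, JQ1 alone gave 2088, 2159.8 and 2017, and IL-10 alone gave 2193, 2397 and 2221. The counts were 705.5, 770.3 and 888 in the LPS group, while LPS + JQ1 gave 1301, 1434 and 1309.8, and LPS + IL-10 gave 766, 792 and 819.6. LPS and LPS + IL-10 overlapped, and LPS + JQ1 lay between them and the groups without LPS. LPS lowered Bach1 2.43-fold (log2 fold change -1.28, SE 0.076, adjusted p 9.13e-63), and JQ1 raised it 1.71-fold in LPS-stimulated cells (log2 fold change 0.77, SE 0.077, adjusted p 1.23e-22). IL-10 alone raised it 1.18-fold (0.24, adjusted p 0.0172), a call lost under 5 of the 13 alternatives, among them the 3 that left out a replicate (adjusted p from 0.194 to 0.959). In LPS-stimulated cells IL-10 gave 0.009 (95% interval -0.15 to 0.17).

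Of 12 genes known to depend on MAF, LPS called 2 higher and 5 lower (0 and 12 under total-count scaling), and JQ1 with LPS 3 higher and 5 lower (5 and 3 under total-count scaling), at a median of -0.048 against -0.11 for all tested genes. Both counts of called genes were near the shares of all genes (63.1% and 57.3%). F13a1, a coagulation factor subunit of macrophages, was lower with JQ1 with LPS (-4.24, SE 0.369) and without it (-4.37, SE 0.362), as was the folate receptor gene Folr2 (-1.18, SE 0.214, and -0.79, SE 0.213), whereas Sepp1, a selenium carrier, was higher (1.58, SE 0.110, and 1.99, SE 0.110). Of 13 genes repressed by BACH1, LPS called 4 higher and 7 lower (2 and 10 under total-count scaling) and JQ1 with LPS called 8 higher and 1 lower, at a median of 0.60. The members that moved most with JQ1 in LPS-stimulated cells were Gclc, a subunit of the rate-limiting enzyme of glutathione synthesis, which was higher (2.40, SE 0.138), Ftl1, the ferritin light chain, also higher (1.70, SE 0.097), and Slc7a11, the cystine transporter, which was lower (-3.99, SE 0.345). Slc7a11 was itself raised by LPS (5.53, SE 0.352). Ferritin light chain has many processed copies in the mouse genome, so its count is uncertain. Nfe2l2, which encodes the activator NRF2 that competes with BACH1, rose with LPS by 0.44 (SE 0.062), a value of -0.49 under total-count scaling and -0.33 in limma's fit of TPM. Of 9 MAF, BACH and NRF factors LPS called 4 higher and 3 lower (2 and 5 under total-count scaling) and JQ1 with LPS called 2 higher and 3 lower (4 and 1), led by Maff, a small MAF protein, which LPS raised (3.89, SE 0.218) and JQ1 lowered (-3.65, SE 0.218). Bach2, the lymphoid relative of Bach1, averaged 29.3 normalised counts. Exons of Maf overlap the non-coding Gm15655 on the opposite strand.

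Mitf and Tfec were the members that JQ1 lowered most in LPS-stimulated cells. Both were also lowered by JQ1 without LPS, where it called 7 of the 9 (1 higher, 6 lower, with 44.4% of all tested genes called). Mitf (chromosome 6, 97757052 to 97971352, plus strand) had 1868, 1683 and 1674 normalised counts in Unstimulated replicates 1 to 3, JQ1 alone gave 1177, 1044 and 1043, and IL-10 alone gave 1657, 1636 and 1503. It had 4598, 4679.8 and 4902.5 in the LPS group, while LPS + JQ1 gave 1105.5, 1072 and 913, and LPS + IL-10 gave 3911, 3800.2 and 4117. The JQ1 and LPS + JQ1 libraries overlapped at the lowest level, below Unstimulated cells. LPS raised Mitf 2.71-fold (log2 fold change 1.44, SE 0.077, adjusted p 2.09e-77), and JQ1 lowered it 4.58-fold with LPS (log2 fold change -2.20, SE 0.079, adjusted p 8.35e-168) and 1.60-fold without (-0.68, adjusted p 1.98e-16). Among JQ1-treated cells LPS gave a log2 fold change of -0.078, with a 95% interval from -0.24 to 0.082, and of -0.45 (adjusted p 1.15e-06) under total-count scaling; in this comparison LPS called 8 of 9 (5 higher, 3 lower; all genes 57.1%, with 27.0% and 30.2%). IL-10 lowered Mitf by 0.26 on the log2 scale in LPS-stimulated cells (adjusted p 0.00540), a call lost under 5 of the 13 alternatives, among them those without replicate 1 (adjusted p 0.0692) and replicate 2 (0.297). Among IL-10-treated cells LPS changed all 9 (6 higher, 3 lower; all genes 62.5%, with 31.0% and 31.5%).

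Tfec (chromosome 6, 16783381 to 16848441, minus strand) was, with Cebpd, among the least abundant members in Unstimulated cells and, of the 6 that rose with LPS, the one with the largest fold. It had 278.5, 186 and 176 normalised counts in Unstimulated replicates 1 to 3, JQ1 alone gave 43.2, 36.5 and 46.7, and IL-10 alone gave 309, 236 and 225. The counts were 2348, 2209 and 2559 in the LPS group, while LPS + JQ1 gave 326, 295 and 316, and LPS + IL-10 gave 2260.0, 1978 and 2397. The LPS + JQ1 libraries lay just above the Unstimulated ones, and the JQ1 libraries far below. LPS raised Tfec 11.0-fold (log2 fold change 3.46, SE 0.155, adjusted p 6.67e-109), and JQ1 lowered it 7.60-fold with LPS (log2 fold change -2.93, SE 0.153, adjusted p 8.56e-80) and 5.09-fold without (log2 fold change -2.35, SE 0.197, adjusted p 5.06e-31). LPS still raised it among JQ1-treated cells (2.89, adjusted p 3.05e-48). IL-10 gave -0.100 with LPS (95% interval -0.39 to 0.19) and 0.27 without it (adjusted p 0.600), which passed once Unstimulated replicate 1 was left out (0.53, adjusted p 0.0205). The window before its start is shown with the C/EBP letters TTGNNNAA, on either strand, in capitals.
Tfec, chr6:16848442-16848691, minus strand: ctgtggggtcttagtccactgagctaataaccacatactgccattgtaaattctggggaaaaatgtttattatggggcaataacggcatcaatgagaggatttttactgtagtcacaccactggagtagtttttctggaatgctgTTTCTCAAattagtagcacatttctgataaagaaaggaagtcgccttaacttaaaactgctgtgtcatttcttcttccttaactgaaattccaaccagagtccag
It held 1 match, 105 bases before the start.

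The other MiT/TFE genes fell with LPS while Mitf and Tfec rose. Tfeb, the master regulator of lysosomal genes, stood at 862, 984 and 860.0 normalised counts in Unstimulated cells, 67.9, 57.9 and 40.5 in the LPS group and 119, 89.5 and 117 after JQ1 and LPS, which gave -4.03 (SE 0.182) for LPS and 0.97 (SE 0.198) for JQ1 with LPS. Tfe3 fell with LPS by 0.37 (SE 0.098). Of the 5 relatives and regulators listed, all fell with LPS and 4 were higher with JQ1 in LPS-stimulated cells, among them Flcn (1.48, SE 0.115) and Fnip2 (0.93, SE 0.113), which encode the folliculin complex that holds these factors in the cytoplasm. Of 14 MiT/TFE target genes LPS called 2 higher and 6 lower (2 and 10 under total-count scaling), and of the 13 tested for JQ1 with LPS 3 were higher and 7 lower (5 and 5 of 14). The 8 called for LPS were near the 63.1% of all genes, and the 10 for JQ1 with LPS stood beside 57.3%. Acp5, an osteoclast phosphatase, rose with LPS (3.32, SE 0.152) and was lower with JQ1 (-1.65, SE 0.145), as was Atp6v0d2, a proton pump subunit (-1.36, SE 0.170), while the protease Ctsb was higher (0.71, SE 0.054).

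**Figure D3:**
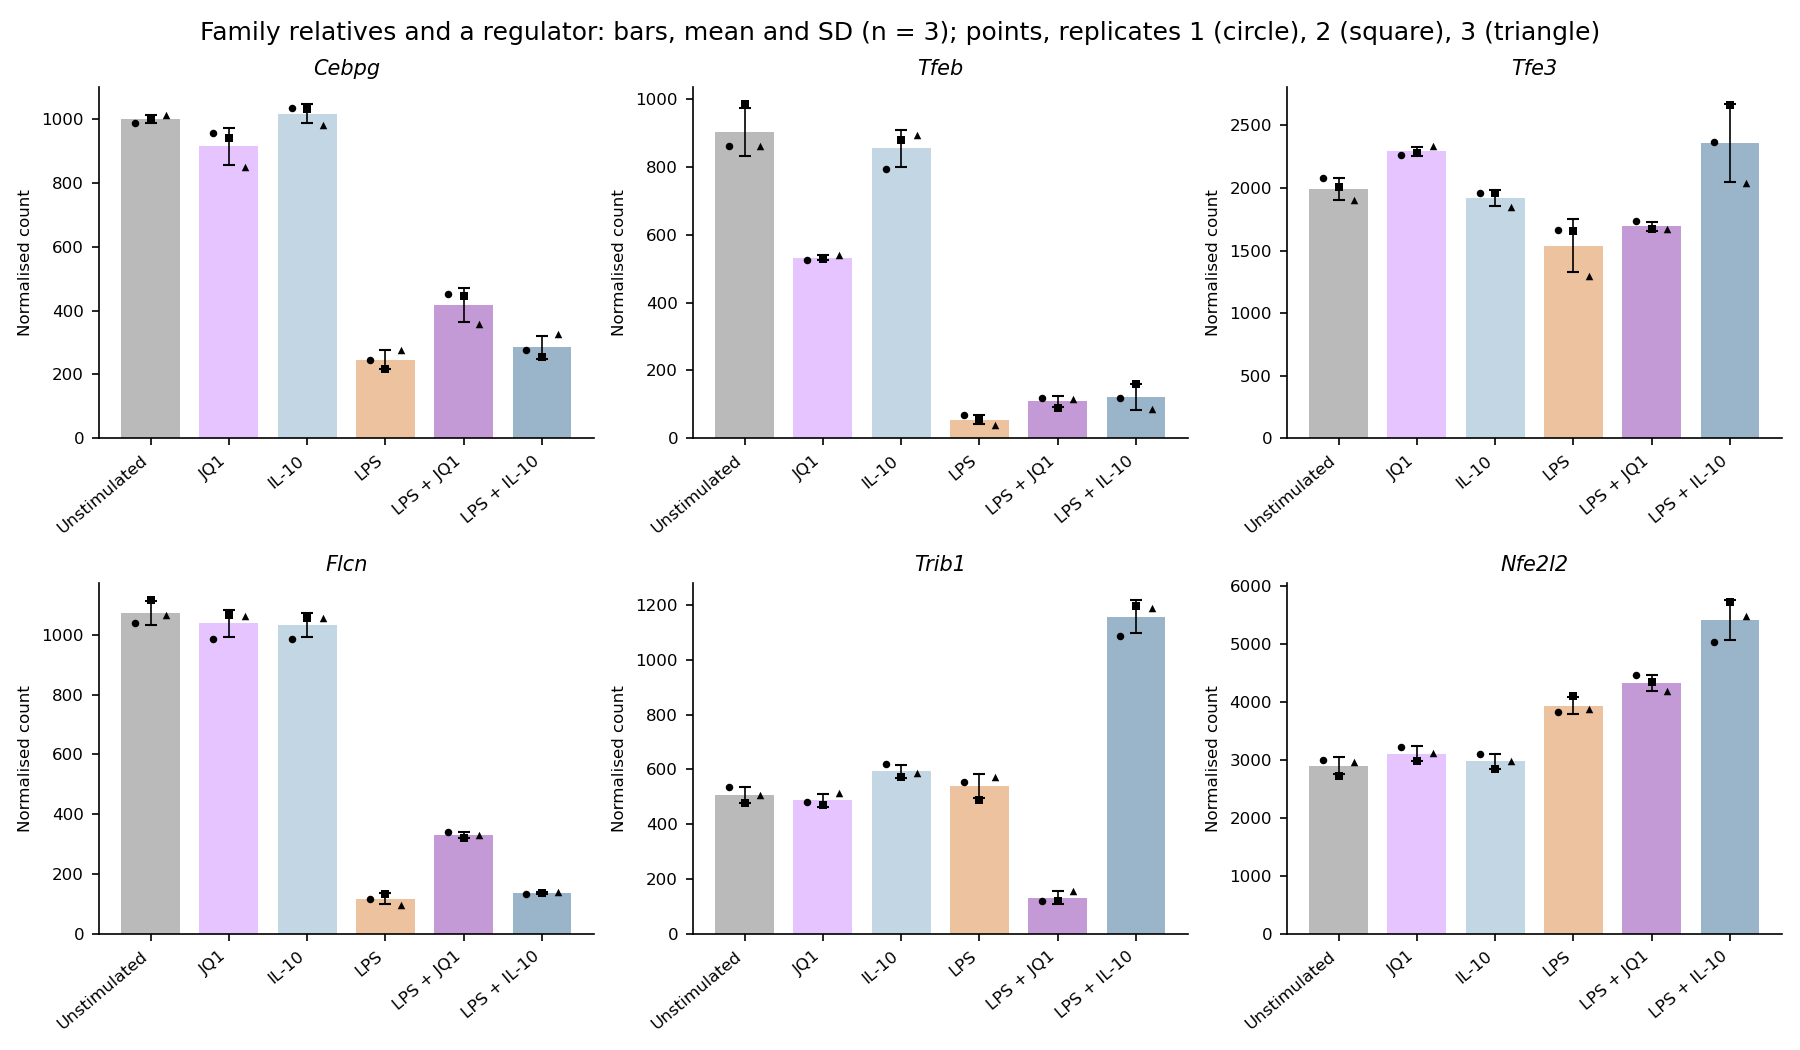
Normalised counts (vertical axis, from 0) of Cebpg, Tfeb, Tfe3, Flcn, Trib1 and Nfe2l2 in the 6 groups; bars are means with SD over 3 replicates and points single libraries. Cebpg, Tfeb and Flcn fell with LPS while Cebpb, Cebpd, Mitf and Tfec rose, and Trib1 split by treatment in LPS-stimulated cells, at 119 to 159 with JQ1 and 1087 to 1196 with IL-10.

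Whether a treatment acted differently with and without LPS was tested as an interaction. For JQ1, 7 of 9 passed (2 higher, 5 lower; all genes 40.3%, with 17.2% and 23.1%), and for IL-10 3, all higher (all genes 6.60%, with 3.57% higher and 3.03% lower). The JQ1 effect was more negative with LPS for Mitf (-1.52, adjusted p 1.16e-39), Spi1 (-0.93, adjusted p 5.34e-08), Maf (-0.93, adjusted p 7.07e-16) and Cebpd, and more positive for Cebpa (2.40, adjusted p 3.21e-19) and Bach1 (0.65, adjusted p 5.84e-09). The value for Runx1 (-0.55) was 0.005 under total-count scaling and 0.017 in limma's fit of TPM. For Tfec the interaction was -0.58 at adjusted p 0.0514, and it passed under 6 of the 13 alternatives. The IL-10 effect was larger with LPS for Cebpb (1.16, adjusted p 4.96e-04), Cebpa (1.04, adjusted p 0.00200) and Runx1 (0.39, adjusted p 0.0214). These 3 calls were lost without replicate 1, at adjusted p 0.158 for Cebpb, 0.247 for Cebpa and 0.151 for Runx1, and only Cebpb passed without replicate 2 (adjusted p 0.0671 for Cebpa and 0.449 for Runx1). The Runx1 call was lost without replicate 3 as well (adjusted p 0.137). Against Unstimulated cells, LPS + JQ1 cells still differed in all 9 (5 higher, 4 lower; all genes 65.5%, with 31.6% and 33.9%), and in 5 (1 higher, 4 lower) under total-count scaling, where Maf stood at -0.082 and Tfec at -0.014 in place of 0.47 and 0.54. Without replicate 3 the Tfec difference was 0.39 (adjusted p 0.0533).

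C/EBPβ and C/EBPδ are known activators of acute-phase and LPS genes, of which 12 were listed and 11 tested. LPS called 7 higher and 0 lower, and JQ1 with LPS 0 higher and 10 lower, at a median of -2.07 against -0.11 for all tested genes. The 7 of 11 called for LPS were all higher, where 30.8% of all tested genes were called higher and 63.1% in either direction. The list names LPS genes, so a rise with LPS was built into it. The 10 of 11 called for JQ1 with LPS were all lower, where 32.9% of all tested genes were called lower and 57.3% in either direction. They included Il6 (-4.88, SE 0.419), the cyclooxygenase gene Ptgs2 (-3.04, SE 0.622) and the iron-binding protein gene Lcn2 (-1.73, SE 0.397). Under total-count scaling 0 were called higher and 8 lower of 12 tested. The LPS libraries enter this comparison with opposite sign, and the study reports that JQ1 attenuated most LPS-induced genes. The choice of list therefore favoured a fall with JQ1 as well. IL-10 with LPS called 2 higher and 2 lower of 10 tested, where 15.7% of all tested genes were called (7.67% higher, 8.02% lower). Of 22 other myeloid fate factors, LPS called 10 higher and 7 lower (5 and 10 of 21 under total-count scaling) and JQ1 with LPS called 2 higher and 10 lower of 21 tested (4 and 9), led by the oxysterol receptor gene Nr1h3 (-3.32, SE 0.175), Ikzf1 (-2.36, SE 0.075) and Egr2 (-2.05, SE 0.184).

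The genes whose log2 normalised counts followed each member most closely over the 18 libraries were sought among 8369 genes with a mean of at least 100; with 6 groups of 3 the libraries are not independent points, and the correlation is a description. Mvp (r = 0.996), Rnf214 (0.996) and Rps6ka4 (0.994) were closest to Spi1. Casp9 (0.997), Plekhm1 (0.996) and Soga1 (0.996) were closest to Cebpa, Dtx2 (0.974) and the interferon receptor genes Ifnar2 (0.966) and Ifngr2 (0.965) to Cebpb, and Irak3 (0.986), a brake on Toll-like receptor signalling, and Tmem50b (0.986) to Cebpd. Gnb1 (0.996), Ywhaz (0.992) and Lrrc8c (0.992) were closest to Maf, Kcnk6 (0.990), Slc16a6 (0.987) and Calhm2 (0.986) to Runx1, and Zmat3 (0.990), Slc45a4 (0.989) and Zbtb44 (0.987) to Bach1. Gramd1b (0.988), Rbms2 (0.985) and Ptprc (0.985) were closest to Mitf, and Gpr84 (0.996), Ms4a6c (0.995) and Gsdmd (0.993) to Tfec. Among the 9 themselves the pairs Spi1 and Maf (r = 0.987) and Spi1 and Tfec (0.971) rose and fell together most closely, and Cebpa and Bach1 (0.968) formed the falling pair. Runx1 stood apart, with correlations from -0.440 to 0.561 with the other 8.

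The size of the LPS and JQ1 differences depended on how the libraries were scaled. Over 12251 expressed genes, those that reached 10 counts in 3 libraries, the median log2 fold change for LPS was -0.067 on the scale used above, -0.14 with TMM factors, -1.0 when libraries were scaled to equal totals and -0.63 on log2(TPM + 1). All 9 kept their direction for LPS on these 4 scales, the smallest rise being that of Cebpb, at 1.25 on the first scale, 0.32 (adjusted p 0.105) under total-count scaling and 0.47 (adjusted p 0.0158) in limma's fit of TPM. For JQ1 in LPS-stimulated cells the medians of all genes were -0.099, 0.018, 0.28 and 0.13, and 8 of the 9 kept direction and call, the exception being Cebpb.

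**Figure D4:**
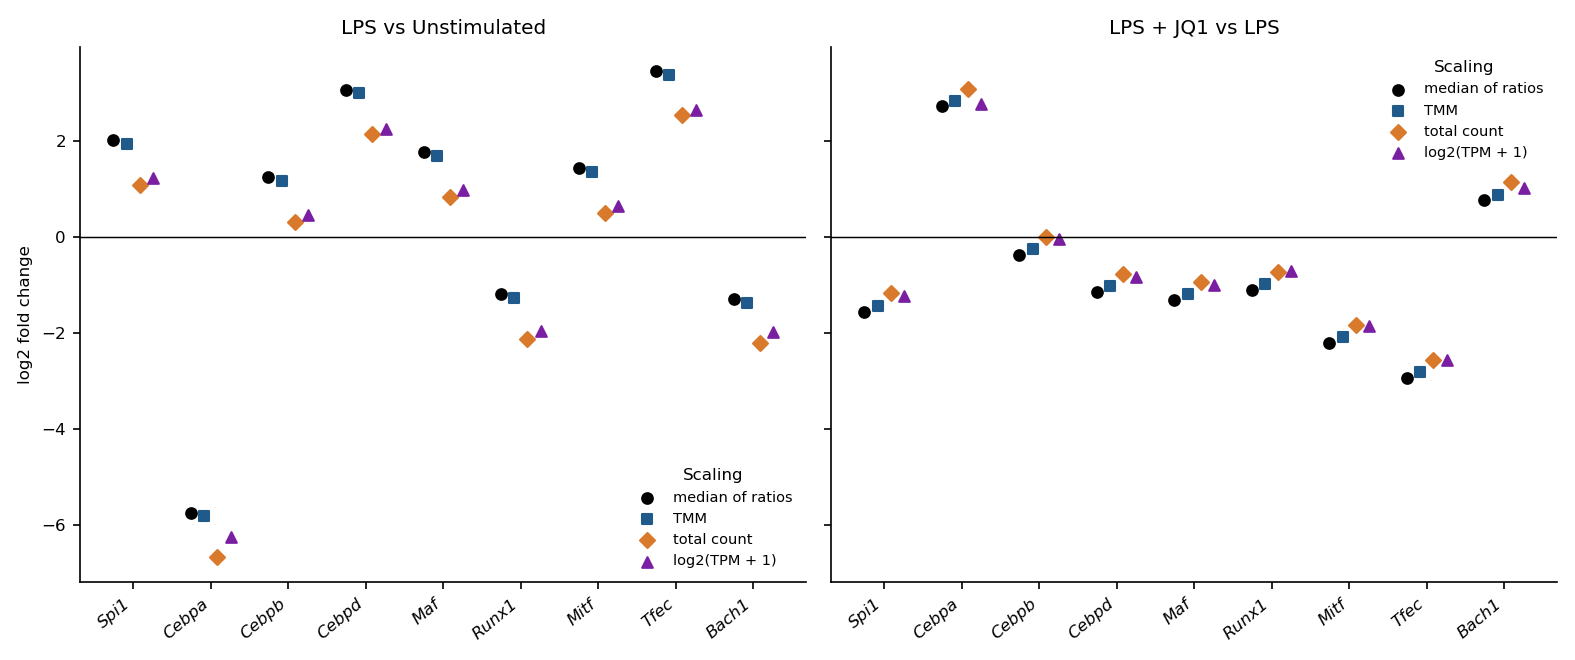
log2 fold change (vertical axis) of the 9 factors for LPS against Unstimulated (left) and LPS + JQ1 against LPS (right) under 4 scalings (symbols). Total-count scaling and TPM put every LPS value lower than median-of-ratios scaling did (for Spi1 1.09 and 1.23 against 2.02), and under total-count scaling the sign changed for Cebpb on the right, from -0.36 to 0.015.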

How the data were processed

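RNA-seq of 18 libraries from BMDMs (6 groups of 3) was used. The authors made ribosome-depleted stranded paired-end libraries, aligned reads with STAR to mm9 and ran RSEM 1.2.31, which was not told the strand; the deposited expected counts, TPM values, lengths and effective lengths of 24485 gene symbols were read as given. Between 5.40% and 6.63% of the expected counts were not whole, and all were rounded before testing. FPKM values were not used. Samples were grouped by their titles.

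The main test was the DESeq2 1.42.0 Wald test (R 4.3.3) with a term for group over all 18 libraries, median-of-ratios size factors and Benjamini-Hochberg adjustment at 0.05 over all genes, for 9 comparisons and 2 interactions. The DESeq2 Wald test was tried on simulated counts for LPS vs Unstimulated only. The other comparisons, the interactions and the alternatives were not simulated. The 13 alternatives included edgeR 4.0.16 quasi-likelihood and limma 3.58.1 on log2(TPM + 1); leaving out Unstimulated replicate 1 was chosen after seeing the data. Totals per library set a floor of 3 counts at 0.106 to 0.442 CPM, which covers counting error only. Equal replicate numbers were taken as matched cultures of the same mouse, a pairing that the main test left out and the replicate block included. Their deviations from the group means correlated at 0.211 on average for LPS, 0.179 for JQ1 and 0.324 for IL-10. The values were -0.093 for LPS + JQ1 vs LPS, 0.589 for LPS + IL-10 vs LPS and -0.12 for LPS + JQ1 vs LPS + IL-10. They were 0.145 for LPS + JQ1 vs JQ1, -0.041 for LPS + IL-10 vs IL-10 and 0.051 for LPS + JQ1 vs Unstimulated.

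The members and the 11 gene lists were chosen with earlier results of these data known. Besides the members, the text names the 3 genes of each list with the largest called difference for LPS + JQ1 vs LPS (mean normalised count at least 100), the 3 genes most correlated with each member, and family relatives; some genes that this rule picks are not reported here. Promoter windows came from a RefSeq table of GRCm38.p6 and were placed in mm9 by exact match; positions are from GENCODE vM1.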

Additional observations from a re-analysis of the deposited data

Results flagged for a closer look

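The effect of JQ1 differed between LPS-stimulated and unstimulated cells, by the interaction term of the DESeq2 model, for 7 of the 9 factors. On the log2 scale the difference was -2.01 for Cebpd, -1.52 for Mitf, -0.93 for Spi1, -0.93 for Maf and -0.55 for Runx1, and 2.40 for Cebpa and 0.65 for Bach1. The Runx1 value was 0.005 under total-count scaling and 0.017 in limma's fit of TPM. The effect of IL-10 differed in the same way for Cebpb (1.16), Cebpa (1.04) and Runx1 (0.39). All 3 of these IL-10 calls were lost without replicate 1 (adjusted p 0.158, 0.247 and 0.151 in that order), Cebpa also without replicate 2 (0.0671), and Runx1 also without replicate 2 (0.449), without replicate 3 (0.137), without Unstimulated replicate 1 (0.0869) and with limma (0.114).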

How the results depend on the processing

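Of 1287 values of single members under the 13 alternatives, 1223 kept their direction and side of the threshold, 25 lost and 16 gained the call, and 23 changed sign, 7 of them called at first. Members called for IL-10 alone numbered 0 to 1 when a replicate was left out, 1 with edgeR and 1 with limma. LPS + JQ1 vs Unstimulated gave 5 under total-count scaling, and the IL-10 interaction 0 to 1 without replicate 1 or 2. The sign changed under total-count scaling for Bach1 with JQ1 (-0.053), Cebpb for LPS + JQ1 vs LPS (0.015), Spi1 (-0.079), Maf (-0.082) and Tfec (-0.014) for LPS + JQ1 vs Unstimulated, the JQ1 interaction of Runx1 (0.005) and the IL-10 interactions of Spi1 (0.086) and Maf (0.075). With limma it changed for Bach1 with JQ1 (-0.080), Cebpa with IL-10 (0.024), Tfec for LPS + IL-10 vs LPS (0.006), Spi1 (-0.004) and Maf (-0.007) for LPS + JQ1 vs Unstimulated, the JQ1 interaction of Runx1 (0.017) and the IL-10 interactions of Spi1 (0.040) and Maf (0.042). Leaving out 1 library or replicate at a time, sign changes lay within -0.10 to 0.012 for Cebpa with IL-10, -0.040 to 0.077 for Bach1 in LPS + IL-10 vs LPS, -0.001 to 0.36 for the JQ1 interaction of Cebpb, and -0.071 to 0.017 (Spi1) and -0.13 to 0.083 (Maf) for the IL-10 interactions. The cause was not tested. The replicate block, which pairs cultures of equal replicate number, moved 3 calls, all gained. They were Cebpa with JQ1 (0.34), Cebpb for LPS + JQ1 vs LPS (-0.33) and the JQ1 interaction of Tfec (-0.59). The block changed no other call.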
